A study of Mus musculus with 4 samples.

Results

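Among the cancer associated fibroblasts (CAF) of these tumors, cells with many transcripts of the contractile genes Acta2 and Tagln were compared with cells in which neither transcript was counted. Acta2 encodes smooth muscle alpha-actin and Tagln encodes transgelin, an actin-binding protein that is used with it to mark myofibroblasts. A cell was kept if it had 500 to 6000 genes, at most 10% mitochondrial counts, no count of Ptprc (the leukocyte antigen CD45) or Pax3, at least 3 counts over the collagen genes Col1a1, Col1a2 and Col3a1, and 5000 to 15000 counts in all. Counts are unique molecular identifiers (UMIs), each standing for 1 captured transcript. Of 24489 barcodes, 10555 were kept. Cells with at least 10 Acta2 UMIs and at least 3 Tagln UMIs were called Acta2-high, and 1067 cells met this. Cells with 0 UMIs of both genes were called Acta2-zero, and there were 2073. The remaining 7415 cells, 70.3% of those kept, lay between these groups. The groups were thus chosen by 2 of the genes measured, in the same cells in which all other genes were then read, so every difference below is a description and no test was run.

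The cells came from tumors grown after intraperitoneal injection of 400000 B16-F1-OVA cells, a mouse melanoma line that carries ovalbumin, and were taken on day 14. The hosts, of strain C57Bl/6 per the labels, were Cxcl13-cre-tdTomato mice crossed to R26R-eGFPflox mice, and both sexes were used in the study. In these mice the promoter of Cxcl13, the chemokine that attracts B cells, drives tdTomato and Cre, and Cre then switches on eGFP for good. CD45neg CD31neg cells with high podoplanin were sorted by the reporters, so tdTomato marks cells in which the promoter was active near the time of harvest, and eGFP marks those in which it was active then or earlier. All 4 populations shared the tumor, the day, the genotype and the sort. The tdTomato-neg eGFP+, tdTomato+ eGFP-neg, tdTomato+ eGFP+ and tdTomato-neg eGFP-neg populations were each 1 library, and values for the 4 libraries are given in this order throughout. How many animals were pooled in a library was not given in the sources used here, and no library has a replicate.

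The libraries held 63310850, 52046896, 10071954 and 90259852 UMIs. Acta2-high cells numbered 189, 290, 61 and 527, which was 6.47% (95% exact binomial interval 5.61 to 7.42), 9.92% (8.86 to 11.1), 14.0% (10.9 to 17.6) and 12.3% (11.4 to 13.3) of the cells kept. The tdTomato-neg eGFP+ interval lay below the other 3, which overlapped in part. These shares depend on depth. With each cell thinned to 5000 UMIs, the tdTomato-neg eGFP+ and tdTomato+ eGFP-neg libraries were close, at 3.80% and 4.11%, so their order is not settled at equal depth. By the choice of cells, Acta2 was at 2814, 2226, 2508 and 2981 CPM and Tagln at 2056, 1820, 1980 and 2132 CPM in Acta2-high cells (CPM, the counts per 1000000 UMIs). Acta2-zero cells numbered 533, 531, 73 and 936, or 18.2%, 18.2%, 16.7% and 21.9%. The Acta2-high cells were deeper, with a median of 10276, 10935, 10729 and 9956 UMIs against 7940, 8015, 7989 and 7453. All levels are therefore given as CPM, after adding up the UMIs of all cells in a group and leaving Acta2 and Tagln out of the totals. After each cell was thinned to 5000 UMIs, the median number of genes per cell was 1897, 1948.5, 1864 and 1842 in Acta2-high cells and 1926, 1929, 1870 and 1923 in Acta2-zero cells. The intervals given here and below cover counting error only.

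The label fibroblast was checked against marker genes. Acta2-high cells had a median of 236 UMIs over the 3 filter collagens, and 96.1% of them had at least 50. In Acta2-zero cells the median was 107, and 77.9% had at least 50. Among 181 cells with a Ptprc UMI that met the other limits on genes, mitochondrial counts and depth, the median was 56, 154 of the 181 had at least 3 and 55.2% had at least 50. What these 181 cells are was not tested, so shares in them are given beside those of the groups below, and no share is read against them as a background of free RNA. Endothelial markers were near 0, with the summed level of 6 genes between 0 and 5.37 CPM in Acta2-high and between 1.58 and 8.14 CPM in Acta2-zero cells. The 6 melanoma genes summed to 27.6, 25.9, 17.1 and 116 CPM in Acta2-high and 53.7, 115, 14.2 and 519 CPM in Acta2-zero cells. The 6 immune genes summed to 12.7, 34.7, 14.0 and 45.5 CPM against 44.0, 87.6, 14.2 and 69.6 CPM. At least 3 melanoma UMIs (Mitf, which other cells also express, left out) were found in 9 Acta2-high and 41 Acta2-zero cells, and at least 3 immune UMIs in 16 and 37. With these cells and all cells under 50 collagen UMIs removed, 1000 Acta2-high and 1580 Acta2-zero cells remained. The genes past the fold threshold defined below then numbered 47 higher and 89 lower of 6143 (0.765% and 1.45%), and 43 and 83 of these had also been past it in all cells. The cells that remained are a subset of all cells, so this overlap is in part built in.

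The groups differed in make-up, and the part of this in the gene differences was not tested except where restricted cells are described. Cells with at least 5 UMIs over 8 mesothelial genes made up 16.9%, 10.7%, 6.56% and 15.2% of Acta2-high and 61.9%, 28.1%, 31.5% and 41.8% of Acta2-zero cells. Mesothelial cells line the peritoneal cavity, in which these tumors grew. A UMI of Pi16, which marks a fibroblast state found across many tissues, was seen in 4.23%, 2.76%, 1.64% and 22.6% of Acta2-high and 3.56%, 15.1%, 6.85% and 35.5% of Acta2-zero cells. At least 2 UMIs over 6 proliferation genes were seen in 55.0%, 45.5%, 47.5% and 52.8% against 31.7%, 19.0%, 17.8% and 28.1%, in cells that also differed in depth. Barcodes found in more than 1 library numbered 57 and accounted for 8 Acta2-high and 15 Acta2-zero cells. Both Xist and a Y-linked gene were counted in 12 Acta2-high and 22 Acta2-zero cells, and no doublet caller was run.

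Smooth muscle alpha-actin is built into stress fibres, the actin and myosin bundles with which myofibroblasts pull on the matrix. Its gene and many others of the contractile apparatus are bound by serum response factor (SRF), which recognises a sequence called the CArG box and is switched on by the actin-sensing cofactors MRTF-A and MRTF-B (Mrtfa, Mrtfb). Transforming growth factor beta (TGF-beta) and a stiff matrix both drive this program, and the mechanosensitive cofactors YAP and TAZ act beside it through TEAD factors, which recognise CATTCC. In tumors, CAF with this program are called myofibroblastic and are set apart from inflammatory CAF, which secrete cytokines and complement, and from CAF that present antigen.

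The promoters of 4 genes are shown because they carry such letters: Acta2, which was used to choose the cells, and Myl9, Cnn2 and Ankrd1, which were higher in Acta2-high cells in every library. Each is the 250 bases before the transcription start, on the gene's strand, from RefSeq on GRCm38.p6. The deposited counts were made on GRCm39 per the submitters' processing notes, and the coordinates are those of the RefSeq table. Capitals mark a CArG box in Myl9 and Cnn2, and CATTCC or its reverse complement GGAATG in Acta2 and Ankrd1.
Acta2, chr19:34255374-34255623, minus strand: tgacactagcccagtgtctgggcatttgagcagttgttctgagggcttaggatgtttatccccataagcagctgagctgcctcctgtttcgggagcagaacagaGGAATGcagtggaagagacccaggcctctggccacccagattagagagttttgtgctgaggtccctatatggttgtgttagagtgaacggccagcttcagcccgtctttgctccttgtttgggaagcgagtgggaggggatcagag
Myl9, chr2:156775214-156775463, plus strand: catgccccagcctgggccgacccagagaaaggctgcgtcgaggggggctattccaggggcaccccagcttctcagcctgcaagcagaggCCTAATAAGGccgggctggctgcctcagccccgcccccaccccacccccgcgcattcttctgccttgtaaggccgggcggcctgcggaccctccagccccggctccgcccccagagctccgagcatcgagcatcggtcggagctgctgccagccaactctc
Cnn2, chr10:79988350-79988599, plus strand: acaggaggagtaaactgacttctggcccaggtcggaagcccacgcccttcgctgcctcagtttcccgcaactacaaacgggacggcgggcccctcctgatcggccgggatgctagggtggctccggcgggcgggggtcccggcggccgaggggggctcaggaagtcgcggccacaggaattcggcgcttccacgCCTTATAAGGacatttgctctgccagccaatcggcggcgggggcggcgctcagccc
Ankrd1, chr19:36119845-36120094, minus strand: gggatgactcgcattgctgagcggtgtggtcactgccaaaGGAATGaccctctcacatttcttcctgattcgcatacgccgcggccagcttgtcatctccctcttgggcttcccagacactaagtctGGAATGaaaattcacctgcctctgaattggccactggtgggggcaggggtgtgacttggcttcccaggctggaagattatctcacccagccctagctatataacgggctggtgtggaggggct
The CArG box of Myl9, CCTAATAAGG, began at -161 and that of Cnn2, CCTTATAAGG, at -56, counted from the transcription start. GGAATG began at -146 in Acta2, and matches in Ankrd1 began at -210 and -123. Of the 47 genes higher in Acta2-high cells, 33 were in the promoter table, and 2 of these (6.06%) held a CArG box on either strand. The share was 1.35% (1 of 74, Selenbp1) for the lower genes, 1.15% (57 of 4951) for all genes tested and 1.40% (378 of 27025) for all promoters. CATTCC on either strand was found in 12.1%, 20.3%, 9.67% and 12.6% of the same sets. These are matches of letters in 1 window and say nothing of binding, and a promoter without a match here may hold a looser one. The Acta2 window had 0 CArG boxes of the strict form counted here. Its letters ccctatatgg and ccttgtttgg are close to that form, so the lack of capitals does not mean that it lacks a CArG box. Tagln and Ccn2 were not in the table.

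Across the transcriptome, the Acta2-high cells carried more RNA for a myosin light chain, the mechanosensitive growth modulator Ccn2, network collagen and matricellular proteins. They carried less RNA for mesothelial keratins and uroplakins, universal-fibroblast genes, complement C3 and hypoxia-inducible genes. A gene was read if it had at least 20 UMIs over both groups in every library, which left 6222 genes. It was called higher or lower if its log2 fold in CPM, with 0.5 UMI added, was at least 1 in the same direction in every one of the 4 libraries. By this rule 47 genes (0.755%) were higher and 96 (1.54%) were lower in Acta2-high cells. The median log2 fold over all genes read lay between -0.09 and 0.01 in the 4 libraries, so the groups were centred alike. Without the tdTomato+ eGFP-neg library 77 were higher and 170 lower, and without the tdTomato+ eGFP+ library 81 and 313, over 3 libraries in place of 4. The first of these fits read 6223 genes. The second read 10674, since the tdTomato+ eGFP+ library had the fewest UMIs, so the shares there were 0.759% and 2.93%. At a log2 fold of 0.5 the shares were 4.47% higher and 6.96% lower, and at any size 26.9% of genes were above 0 and 29.5% below 0 in every library.

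**Figure D1:**
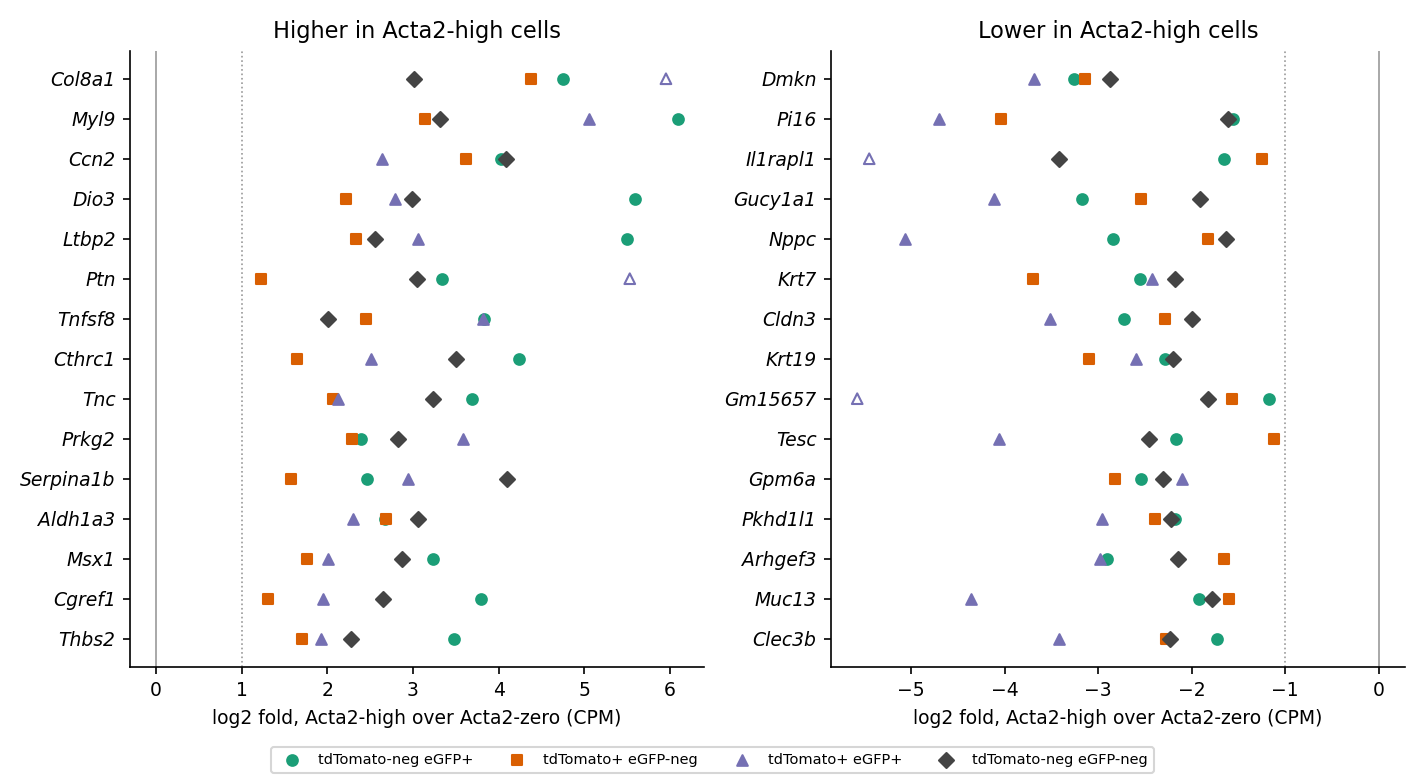
Log2 fold (CPM, Acta2-high over Acta2-zero) of the 15 genes with the largest mean fold in each direction among the 47 higher and 96 lower genes, 1 symbol for each library, with dotted lines at 1 and -1. Hollow symbols (Col8a1, Ptn, Il1rapl1 and Gm15657 in the tdTomato+ eGFP+ library) had 0 UMIs in the lower group, and their position rests on the 0.5 UMI added; every other symbol is a ratio of counted UMIs.

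Of the 30 genes of the contractile apparatus other than Acta2 and Tagln, 21 had enough UMIs. Of these, 3 were higher and 0 lower, and 16 were above 0 in every library. Myl9, the regulatory light chain of smooth muscle myosin, was the most changed of them. It was at 127, 60.6, 77.6 and 135 CPM in Acta2-high cells and at 1.76, 6.78, 1.58 and 13.5 CPM in Acta2-zero cells. The lowest Acta2-high library was thus above the highest Acta2-zero library. Here and below, the share of all genes read with no such overlap was not counted, so this describes the gene only. The log2 folds were 6.09 (95% interval 5.17 to 7.40), 3.14 (2.60 to 3.77), 5.05 (3.08 to 10.95) and 3.32 (3.02 to 3.64). The third of these rests on 50 UMIs against 1, a ratio of 49.3. After thinning to 5000 UMIs, a Myl9 UMI was found in 32.2% of Acta2-high cells (29.4 to 35.1), 3.76% of Acta2-zero cells (2.99 to 4.67) and 2.21% of cells with a Ptprc UMI. By library the Acta2-zero share ran from 0.938% to 5.98%.

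Tpm1, a tropomyosin that lies along the actin filament, stood at 745, 543, 834 and 755 CPM against 280, 216, 274 and 296 CPM, log2 folds of 1.41, 1.33, 1.60 and 1.35. Its range over libraries was the narrowest of the 3. Cnn2, calponin 2, stood at 189, 147, 140 and 150 CPM against 63.5, 46.5, 66.2 and 38.7 CPM, and its fold in the tdTomato+ eGFP+ library was 1.07 (0.53 to 1.64), near the threshold. Tpm2 missed the threshold in that library only, with 548, 579, 480 and 369 CPM against 263, 220, 244 and 142 CPM. Mylk, the kinase that activates myosin light chain, was at 130, 87.5, 101 and 119 CPM against 10.3, 54.7, 39.4 and 66.7 CPM, so its log2 fold ran from 0.68 to 3.65 without passing in every library. The other end of the list held Actn4 (-0.35, 0.18, 0.21 and -0.09), Tpm3 (-0.04, 0.27, 0.23 and -0.04) and Myl12b, a light chain of nonmuscle myosin (-0.41, -0.29, -0.44 and -0.34). Summed over the list, the level was 19546, 16700, 18099 and 19333 CPM against 11666, 9939, 10912 and 10746 CPM, and the 2 groups did not overlap. The levels given for Myl9, Tpm1, Cnn2, Tpm2 and Mylk are a small part of this sum. The list also holds the actins Actb and Actg1, so the sum does not stand for smooth muscle genes alone. The median log2 fold of the list was 0.78, against -0.03 over all genes read.

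Genes that tie stress fibres to the matrix differed less. Of 21 focal adhesion and stress fibre genes, 19 had enough UMIs, and 0 were higher or lower, with a median log2 fold of 0.34. Tgfb1i1 (Hic-5, an adhesion adaptor) had log2 folds of 1.28, 0.79, 1.06 and 1.09, Csrp1, a LIM protein on actin bundles, had 0.80, 0.94, 1.58 and 1.04, and Ilk, integrin-linked kinase, had 1.03, 0.90, 0.77 and 0.99. Each was above 0 in every library without passing the threshold. Paxillin (Pxn) lay on the other side, at 20.7, 19.4, 18.6 and 15.5 CPM against 32.5, 33.2, 37.8 and 31.5 CPM. Among 8 integrins read, Itga1, a collagen receptor subunit, was higher, at 34.5, 43.1, 31.1 and 34.5 CPM against 10.3, 12.4, 6.30 and 11.5 CPM. Itga5, which pairs with Itgb1 to bind fibronectin, had log2 folds of 1.07, 0.93, 0.96 and 0.86. Itga2, the other collagen receptor subunit read, had 0.03, -1.94, -2.05 and -0.10.

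The list of SRF, its cofactors and its immediate early targets had 9 genes, of which 7 were read and 0 were past the threshold, with a median log2 fold of -0.15. Srf itself and the muscle cofactor Myocd had too few UMIs. Of the cofactors read, Mrtfa was above 0 in every library, with log2 folds of 0.21, 0.29, 1.01 and 0.38, and Mrtfb was mixed, at -0.30, 0.05, -0.13 and 0.35. The 5 immediate early genes were split in all cells. Egr2 was at 37.6, 29.5, 52.8 and 39.2 CPM against 19.1, 26.2, 15.8 and 23.2 CPM, while Egr1, Fos and Fosb were below 0 in every library, between -0.39 and -0.93. In the mesothelial-poor cells without Pi16 described below, the direction of Egr2 turned. Its log2 folds there were -0.57, -0.46 and -0.21 in the tdTomato-neg eGFP+, tdTomato+ eGFP-neg and tdTomato-neg eGFP-neg libraries.

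Of 10 YAP and TAZ genes, 9 were read, 2 were higher and 0 lower, and the median log2 fold was 0.04. Ccn2 (connective tissue growth factor) was at 420, 323, 387 and 381 CPM in Acta2-high cells, a narrow range, and at 25.7, 26.2, 61.5 and 22.4 CPM in Acta2-zero cells. Its log2 folds were 4.03 (3.75 to 4.32), 3.62 (3.35 to 3.92), 2.64 (2.16 to 3.18) and 4.08 (3.86 to 4.32). A Ccn2 UMI was found in 36.4% of thinned Acta2-high cells against 6.22% of Acta2-zero cells and 5.52% of the cells with a Ptprc UMI. Ankrd1, an ankyrin repeat protein of muscle nuclei and sarcomeres, was at 23.9, 32.1, 51.2 and 10.2 CPM against 9.46, 7.003, 15.8 and 3.73 CPM. The related Ccn1 did not pass, with log2 folds of 1.38, 0.55, 1.01 and 0.80. Yap1 (-0.49, -0.48, -0.11 and -0.51), Wwtr1, which encodes TAZ (-0.59, -0.35, 0.11 and -0.27), and Tead1 (-0.11, 0.03, 0.09 and 0.16) were not higher. The 2 genes past the threshold were thus targets and not the cofactors.

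In the TGF-beta pathway, 7 of 10 genes of ligands and latency were read, with 1 higher and 1 lower and a median log2 fold of -0.17. Ltbp2, a microfibril protein of the latent TGF-beta binding family, was higher, at 34.5, 58.6, 45.0 and 30.1 CPM against 0.66, 11.5, 4.73 and 5.07 CPM. In the tdTomato-neg eGFP+ library this was 65 UMIs against 3, a log2 fold of 5.50 (4.10 to 8.02). Ltbp4, another member of the family, was lower, at 12.7, 11.7, 6.21 and 18.0 CPM against 26.4, 23.9, 37.8 and 43.2 CPM. The ligand Tgfb1 was at 45.1, 30.5, 38.8 and 44.5 CPM against 15.2, 19.2, 18.9 and 13.3 CPM. The groups did not overlap, but the tdTomato+ eGFP-neg library was at a log2 fold of 0.66. Inhba, a subunit of activin, also missed the threshold in that library only, with log2 folds of 1.01, 0.69, 2.29 and 1.05. Of 12 receptor and Smad genes, 10 were read, 0 were past the threshold and 5 were below 0 in every library, among them Tgfbr2 (-0.58, -0.71, -0.94 and -0.77) and the co-receptor Tgfbr3 (-0.63, -0.67, -1.22 and -1.18). Of 9 TGF-beta target genes, 6 were read, and Ltbp2, which is also in the ligand list, was the 1 past the threshold. Pmepa1, a feedback inhibitor of the pathway, was above 0 throughout (0.73, 0.60, 0.80 and 0.68).

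Several matrix genes were higher. Of 12 fibrillar and associated collagens, 11 were read and 2 were higher, with a median log2 fold of 0.63. Col8a1, a short chain of network collagen, was at 85.9, 101, 48.1 and 162 CPM against 3.08, 4.74, 0 and 20.0 CPM. In the tdTomato+ eGFP+ library the count was 31 UMIs against 0, which makes it at least 10.2-fold higher at a floor of 3 counts. Its log2 folds in the other libraries were 4.76 (4.01 to 5.71), 4.38 (3.78 to 5.13) and 3.02 (2.77 to 3.28). Col15a1, a multiplexin beneath basement membranes, was at 435, 422, 422 and 425 CPM in Acta2-high cells and at 60.5, 177, 145 and 158 CPM in Acta2-zero cells. The Acta2-high level was nearly the same in the 4 libraries. In the mesothelial-poor cells without Pi16 described below, Col15a1 was no longer past the threshold, with log2 folds of 1.30, 0.84 and 0.52 and a mean of 0.88 against 1.77 in all cells. Col6a3 (1.75, 0.55, 0.93 and 1.05), Col5a3 (1.44, 0.69, 1.05 and 1.41) and Col5a1 (1.39, 0.60, 0.88 and 1.05) were above 0 throughout. The 3 collagens of the cell filter, Col1a1, Col1a2 and Col3a1, were also above 0 in every library, with Col1a1 at log2 folds of 1.19, 0.77, 0.40 and 1.22.

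Of 15 matricellular and crosslinking genes, 14 were read, 5 were higher and 0 lower, and the median log2 fold was 0.59. Tnc (tenascin C, an adhesion-modulating matrix protein) was at 851, 640, 826 and 797 CPM against 65.7, 153, 189 and 84.7 CPM. Postn (periostin) was at 400, 266, 253 and 634 CPM against 34.1, 97.8, 70.9 and 161 CPM. Cthrc1, a secreted collagen-repeat protein of scar fibroblasts, was at 292, 114, 238 and 556 CPM against 15.4, 36.4, 41.0 and 48.9 CPM. For each of these genes, named for large folds in this same contrast, the lowest Acta2-high library was above the highest Acta2-zero library. Thbs2 (thrombospondin 2) was at 57.3, 36.3, 55.9 and 55.7 CPM against 5.06, 11.1, 14.2 and 11.5 CPM, and the lysyl oxidase Loxl3 at 63.6, 35.0, 31.1 and 62.0 CPM against 11.2, 14.9, 12.6 and 19.9 CPM. For all 5 genes the fold was largest in the tdTomato-neg eGFP+ library and smallest in the tdTomato+ eGFP-neg library. Thbs1, the other thrombospondin, had log2 folds of 1.25, 1.13, 1.00 and 1.02 and was below 1 before rounding in the tdTomato+ eGFP+ library. Elastin (Eln) was the lowest of the list, at 44.0, 56.4, 26.4 and 53.7 CPM against 162, 101, 80.4 and 107 CPM, and fibronectin (Fn1) was even. Of 12 basement membrane genes read, 0 were past the threshold, and the collagen IV chains were divided. Col4a1 (1.99, 0.62, 1.22 and 0.46) and Col4a2 (1.71, 0.46, 1.48 and 0.46) were above 0 in every library and Col4a5 (-1.36, -0.33, -1.54 and -1.45) was below.

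Further genes among the 15 largest higher folds have roles outside contraction and matrix. Dio3, the deiodinase that inactivates thyroid hormone, was at 111, 21.4, 80.7 and 131 CPM against 2.20, 4.52, 11.03 and 16.5 CPM. Aldh1a3, which makes retinoic acid, was at 325, 375, 455 and 449 CPM against 51.0, 58.1, 91.4 and 53.6 CPM, and its log2 folds (2.67, 2.69, 2.31 and 3.06) varied little. The secreted heparin-binding factor Ptn was at 29.7, 4.86, 35.7 and 24.8 CPM against 2.86, 2.03, 0 and 2.93 CPM. In the tdTomato+ eGFP+ library Ptn was at least 7.55-fold higher, and in the tdTomato+ eGFP-neg library the interval of its log2 fold (1.23, -0.03 to 2.63) reached below 0. Tnfsf8 (CD30 ligand) was at 20.1, 25.3, 32.6 and 26.5 CPM against 1.32, 4.52, 1.58 and 6.53 CPM, where the third value rests on 1 UMI and the ratio of 20.7 has a log2 interval of 1.73 to 9.74. Prkg2, a kinase activated by cyclic GMP, was at 29.2, 27.9, 65.2 and 16.5 CPM against 5.50, 5.65, 4.73 and 2.27 CPM. The homeobox gene Msx1 was at 33.9, 13.3, 34.2 and 40.3 CPM against 3.52, 3.84, 7.88 and 5.47 CPM. Serpina1b, an antitrypsin, and Cgref1 completed the 15, with log2 folds of 1.57 to 4.10 and 1.31 to 3.79.

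The number of these genes held by single cells was counted. For the 8 genes Myl9, Ccn2, Col8a1, Ltbp2, Tnc, Cthrc1, Postn and Thbs2, cells thinned to 5000 UMIs were scored by how many of the 8 had a UMI. The median was 3 in Acta2-high and 0 in Acta2-zero cells. None of the 8 was found in 9.84% of Acta2-high and 59.9% of Acta2-zero cells. At least 4 were found in 43.9% of Acta2-high cells (43.4%, 26.2%, 47.5% and 53.3% by library) and 2.07% of Acta2-zero cells (0.188%, 1.32%, 0% and 3.74%). The 0% is 0 of 73 cells. In the cells between, the share was 5.96%. Among the single genes, Tnc was found in 68.9%, Postn in 63.0% and Cthrc1 in 52.3% of Acta2-high cells, against 14.0%, 19.7% and 9.65% of Acta2-zero cells and 18.2%, 18.2% and 7.73% of cells with a Ptprc UMI. The 8 genes were chosen after their values were seen, and since each was more often found in Acta2-high cells, the counts say nothing of whether the genes go together within a group.

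**Figure D2:**
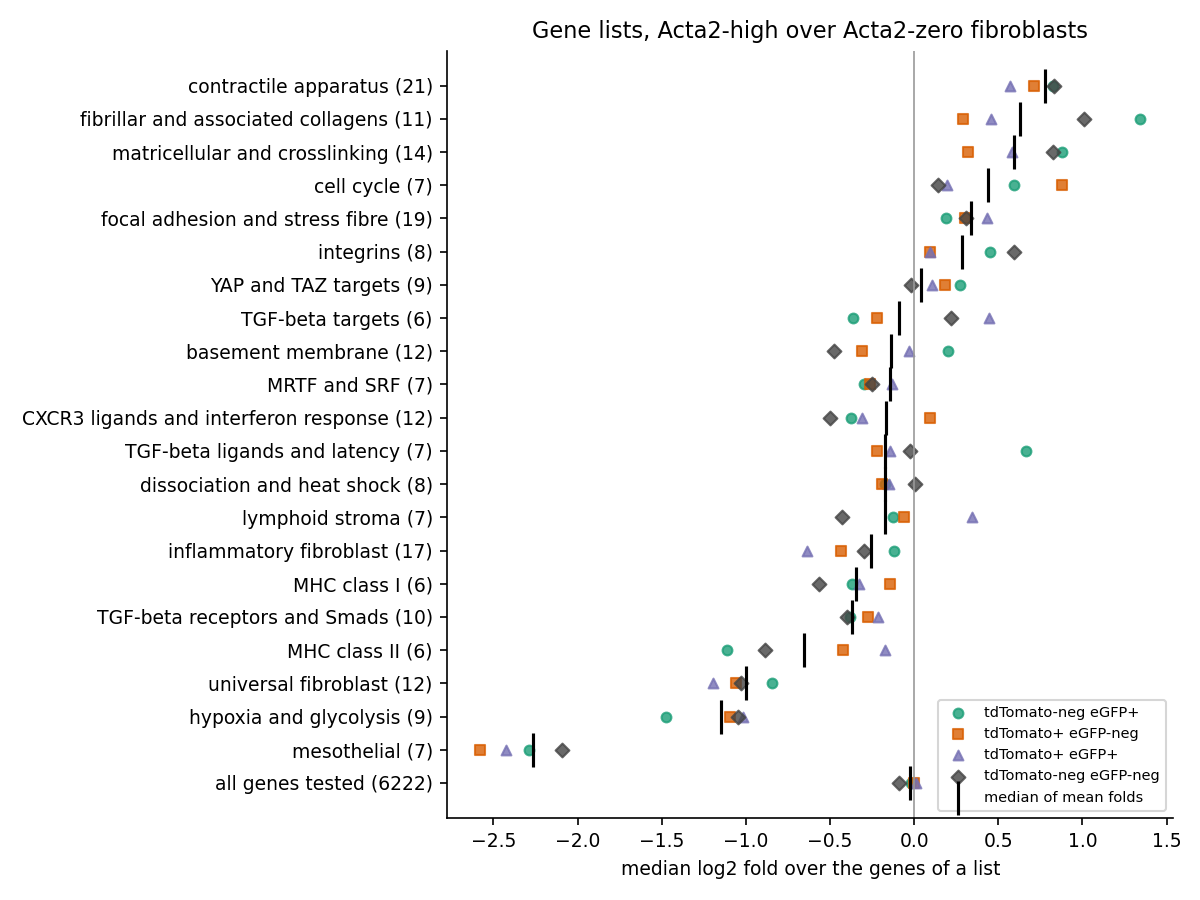
Median log2 fold (Acta2-high over Acta2-zero, CPM) over the genes of each list with enough UMIs, 1 symbol for each library and a bar for the median of the mean folds, with the number of genes read in brackets. The contractile, collagen and matricellular lists lie highest (0.78, 0.63 and 0.59), the mesothelial list lowest (-2.27), and all 6222 genes at -0.03.

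The mesothelial genes were lower throughout. Of the 8 genes of the list, 7 had enough UMIs, and each of these was lower, with a median log2 fold of -2.27. Krt19, a simple epithelial keratin, was at 57.8, 13.6, 12.4 and 49.7 CPM in Acta2-high and 283, 117, 78.8 and 229 CPM in Acta2-zero cells. Upk3b, a uroplakin of the mesothelium, was at 46.6, 9.40, 17.1 and 28.2 CPM against 171, 56.9, 102 and 121 CPM. Msln, the defining marker mesothelin, had too few UMIs in 1 library and was at 40.8, 6.48, 6.21 and 35.7 CPM against 162, 30.7, 14.2 and 149 CPM. The level was lower in Acta2-high cells within every library, and on both sides it was highest in the 2 tdTomato-neg populations. Summed over the 8 genes, it was 422.5, 147.4, 139.8 and 342.8 CPM against 1691, 617.2, 866.9 and 1313 CPM. Dmkn, a secreted protein of epithelia, had the largest negative fold of all (78.5, 39.5, 31.1 and 65.3 CPM against 755, 351, 410 and 479 CPM). The tight junction gene Cldn3 was at 16.4, 8.42, 4.66 and 12.3 CPM against 110, 41.8, 61.5 and 49.2 CPM. A Krt19 UMI was found in 8.43% of thinned Acta2-high, 31.3% of Acta2-zero and 21.0% of the cells with a Ptprc UMI.

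Genes of universal fibroblasts, a resting state known from many tissues, were lower in part. Of 14 genes, 12 were read, 4 were lower and 0 higher, with a median log2 fold of -0.998. Pi16, a peptidase inhibitor and the defining marker, was at 4.77, 4.86, 1.55 and 65.1 CPM against 14.7, 82.2, 59.9 and 199 CPM. The tdTomato-neg eGFP-neg library was highest on both sides. Cd34, a sialomucin of progenitor cells, was at 47.7, 53.1, 18.6 and 41.8 CPM against 142, 129, 97.7 and 181 CPM. The scavenging chemokine receptor Ackr3 had log2 folds of -1.84, -1.54, -1.31 and -1.49, and the guidance cue Sema3c of -2.06, -1.09, -2.85 and -2.12. Dcn, the matrix proteoglycan decorin, was at 1724, 2834, 2312 and 1951 CPM against 3661, 5107, 4886 and 4198 CPM and missed the threshold in 1 library. Mfap5, a microfibril protein, went the other way, at 956, 548, 536 and 1760 CPM against 191, 298, 197 and 599 CPM.

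Hypoxia-inducible genes were lower as a list. Of 10 genes, 9 were read, 4 were lower and 0 higher, and the median log2 fold was -1.15. Egln3, a prolyl hydroxylase that acts on the hypoxia-inducible factors, was at 36.0, 53.8, 49.7 and 20.2 CPM against 196, 163, 137 and 60.7 CPM. Vegfa, the angiogenic growth factor, was at 101, 156, 76.1 and 57.2 CPM against 305, 379, 285 and 133 CPM. Adm (adrenomedullin, a vasodilator peptide) was at 28.1, 61.2, 20.2 and 34.5 CPM against 105, 173, 80.4 and 102 CPM, and Bnip3, a mitophagy receptor, had log2 folds of -1.48, -1.10, -1.02 and -1.003. Ndrg1 was lower in size but missed the threshold in the tdTomato+ eGFP+ library (-2.64, -2.03, -0.91 and -1.94). The glycolytic genes Pgk1 and Ldha were nearer to even, between -0.57 and -0.06. Of 8 dissociation and heat shock genes, 0 were past the threshold, and Atf3 was the lowest (-1.46, -0.95, -1.33 and -1.21). Of the 8 proliferation genes, 7 were read and 0 were past the threshold, with a median log2 fold of 0.44. In the mesothelial-poor cells without Pi16 described below, all 8 were read and the median was 1.35, above the 0.90 of the contractile list there. In all cells of the same 3 libraries the median of the 8 was 0.65, and 0 were past the threshold in either.

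Of 18 inflammatory fibroblast genes, 17 were read, 3 were lower and 0 higher, with a median log2 fold of -0.25. Complement C3 was at 957, 1397, 1006 and 708 CPM against 2707, 3955, 2979 and 2719 CPM, log2 folds of -1.50, -1.50, -1.57 and -1.94. Clec3b (tetranectin, a plasminogen-binding protein) was at 40.8, 43.1, 15.5 and 122 CPM against 136, 210, 173 and 574 CPM, and the third was Ptgs2, the prostaglandin synthase. Saa3, an acute phase protein, was at 5285, 9291, 9498 and 2760 CPM against 12976, 20051, 18935 and 9430 CPM, just short of the threshold in the tdTomato+ eGFP+ library. The list was not uniform, since the monocyte attractant Ccl2 had log2 folds of 0.41, 0.61, 0.11 and 0.64. Of 10 lymphoid stroma genes, 7 were read and 0 were past the threshold. Cxcl13, whose promoter drives the reporters, was at 47.7, 1518, 430 and 107 CPM in Acta2-high and 192, 2718, 1709 and 274 CPM in Acta2-zero cells. The tdTomato+ libraries were highest on both sides, and within each library the Acta2-high cells were lower, with log2 folds of -2.005, -0.84, -1.99 and -1.35. A Cxcl13 UMI was found in 20.0% of thinned Acta2-high cells, 31.0% of Acta2-zero cells and 29.8% of cells with a Ptprc UMI.

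No antigen presentation gene was past the threshold. Of 7 MHC class II genes, 6 were read and 3 were below 0 in every library, with a median log2 fold of -0.65, while H2-DMb1 (0.44) and H2-DMa (0.06) were above 0 in the tdTomato+ eGFP-neg library and H2-Ab1 (0.01) in the tdTomato+ eGFP+ library. The invariant chain Cd74 was at 938, 1287, 1522 and 802 CPM against 2436, 2101, 2148 and 1649 CPM. Of the 6 class I genes, 5 were below 0 in every library, with a median of -0.34. Of 12 genes of CXCR3 ligands and interferon response, 0 were past the threshold, and Cxcl9, a T cell attractant, lay apart from Cxcl10. Cxcl9 was at 1507, 899, 1297 and 1450 CPM against 191, 473, 260 and 930 CPM, log2 folds of 2.98, 0.93, 2.31 and 0.64, while those of Cxcl10 were 0.48, 0.61, -0.29 and -0.50. Both genes encode ligands of the same receptor. In the mesothelial-poor cells without Pi16, Cxcl9 had log2 folds of 1.75, 0.52 and -0.31 in the 3 libraries read, so its direction turned in the tdTomato-neg eGFP-neg library and its mean was 0.65 against 1.72 in all cells.

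Among the 15 largest lower folds, some encode signalling proteins. Gucy1a1, a subunit of the nitric oxide receptor that makes cyclic GMP, was at 6.89, 4.54, 1.55 and 11.5 CPM against 64.4, 27.3, 39.4 and 43.5 CPM. Nppc, C-type natriuretic peptide, was at 3.18, 6.48, 1.55 and 2.11 CPM against 24.6, 23.5, 77.2 and 6.80 CPM. Both were at 1 UMI in the Acta2-high cells of the tdTomato+ eGFP+ library, where the ratios were 0.0394 (log2 interval -10.03 to -2.05) and 0.0201 (-10.97 to -3.09). Arhgef3, an activator of RhoA, was at 2.12, 8.75, 3.11 and 6.14 CPM against 17.8, 28.0, 29.9 and 27.6 CPM. Il1rapl1 and the noncoding Gm15657 had 0 UMIs in the Acta2-high cells of that library and were at least 7.11-fold and 7.78-fold lower there.

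Acta2 and Tagln are also expressed by pericytes and vascular smooth muscle, whose markers were therefore examined whatever their level. Of 8 smooth muscle genes, 1 was read (Des, log2 folds of 0.94, 0.81, 0.39 and 0.39), and of 10 pericyte genes 1 was read (Ndufa4l2, -1.02, -0.65, -0.53 and -0.44). Smooth muscle myosin (Myh11) was at 8.48, 16.8, 9.32 and 1.15 CPM against 1.10, 2.26, 0 and 0.133 CPM. Calponin 1 (Cnn1) was at 9.01, 8.42, 3.11 and 8.06 CPM against 0.66, 0.678, 0 and 0.667 CPM. The pericyte receptor Notch3 was at 22.8, 16.5, 20.2 and 16.3 CPM against 2.86, 2.03, 3.15 and 2.40 CPM. The pericyte adhesion molecule Mcam was at 14.3, 6.16, 6.21 and 8.45 CPM against 0.88, 1.58, 0 and 0.667 CPM. Cspg4, also on the pericyte list, was at 6.36, 1.94, 3.11 and 2.11 CPM against 1.32, 0.452, 0 and 1.07 CPM. Rgs5, a defining pericyte gene, was at 20.1, 13.9, 0 and 0.192 CPM against 0, 0, 0 and 0.533 CPM. Its UMIs sat in 0.562% of Acta2-high cells before thinning. Casq2 had 0 UMIs on both sides, and Kcnj8, Abcc9, Higd1b and Vtn were at 7.07 CPM or less. Cox4i2, on the pericyte list, was at 26.5, 13.0, 12.4 and 14.6 CPM against 10.1, 15.6, 4.73 and 9.87 CPM, and Des at 243, 267, 211 and 58.2 CPM against 127, 152, 161 and 44.4 CPM. Summed over the 8 smooth muscle genes, the level was 277, 305, 228 and 82.3 CPM in Acta2-high and 137, 161, 164 and 53.5 CPM in Acta2-zero cells. Over the 10 pericyte genes it was 381, 353, 413 and 283 CPM against 592, 494, 542 and 343 CPM, most of it Ndufa4l2. Myh11, Cnn1, Notch3, Mcam and Cspg4 thus had a higher CPM in Acta2-high cells in every library while the summed pericyte list was lower. None of these genes had enough UMIs to be read in all 4 libraries. In the tdTomato+ eGFP+ library Cnn1 and Cspg4 each rested on 2 UMIs against 0, with a lower log2 bound of -2.43, so their order there is not settled. Without that library 4 pericyte genes were read. Of these, 2 (Notch3 and Mcam) were higher and 0 lower, with a median log2 fold of 1.72. In the mesothelial-poor cells without Pi16 described below, 2 of 4 were higher and 0 lower, with a median of 0.88. The part of mural cells in the result was not tested.

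Because from 0 to 10 Acta2 UMIs is a range and not a gap, the cells at the limits were read beside those inside, as a description. Myl9 was at 41.3 CPM in the 131 Acta2-high cells with 10 or 11 Acta2 UMIs and at 38.0 CPM in the 177 cells just outside, with 8 or 9. It was at 37.6 CPM in the 83 Acta2-high cells with 3 Tagln UMIs and at 21.6 CPM in the 102 cells with 2. On the other side, Myl9 was at 8.18 CPM in all Acta2-zero cells, at 5.11 CPM in 1366 cells with 1 Acta2 UMI and no Tagln, and at 16.7 CPM in 186 cells with 1 Tagln UMI and no Acta2. In these pooled cells the Acta2 limit thus cut through cells of like Myl9 level, and a single Tagln UMI went with more Myl9 than a single Acta2 UMI. The cells of all 4 libraries were added up here, and the mix of libraries in each set was not read, so the order within a library is not shown.

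Tagln divided the cells with many Acta2 UMIs. Of 1841 cells with at least 10 Acta2 UMIs, 493 had no Tagln UMI, 281 had 1 or 2, 424 had 3 to 9 and 643 had at least 10. The median Acta2 count was 13, 14, 16 and 26, so the classes also differed in Acta2. Myl9 was at 10.4, 19.0, 48.9 and 148 CPM over the 4 classes, Ccn2 at 33.7, 35.4, 110 and 542 CPM and Tnc at 143, 224, 515 and 925 CPM. Cells with Acta2 but no Tagln were thus near the Acta2-zero level of Myl9. From no Tagln to at least 10 Tagln UMIs, Myl9 went from 6.86 to 174 CPM, 7.99 to 82.6 CPM, 8.15 to 108 CPM and 16.5 to 180 CPM in the 4 libraries, of which the third had 23 cells without Tagln. Tpm1 was at 355, 417, 492 and 831 CPM over the classes and Postn at 83.9, 184, 341 and 547 CPM. The summed mesothelial genes went the other way, at 876, 621, 493 and 156 CPM, and mesothelial-rich cells made up 49.5%, 32.0%, 24.5% and 6.69%. Among cells with many Acta2 UMIs, those without Tagln thus had the most mesothelial RNA. Acta2-zero cells had more, at 1217 CPM, and 43.1% of them were mesothelial-rich. The part of mesothelial genes in the lower contractile genes of the cells without Tagln was not tested.

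**Figure D3:**
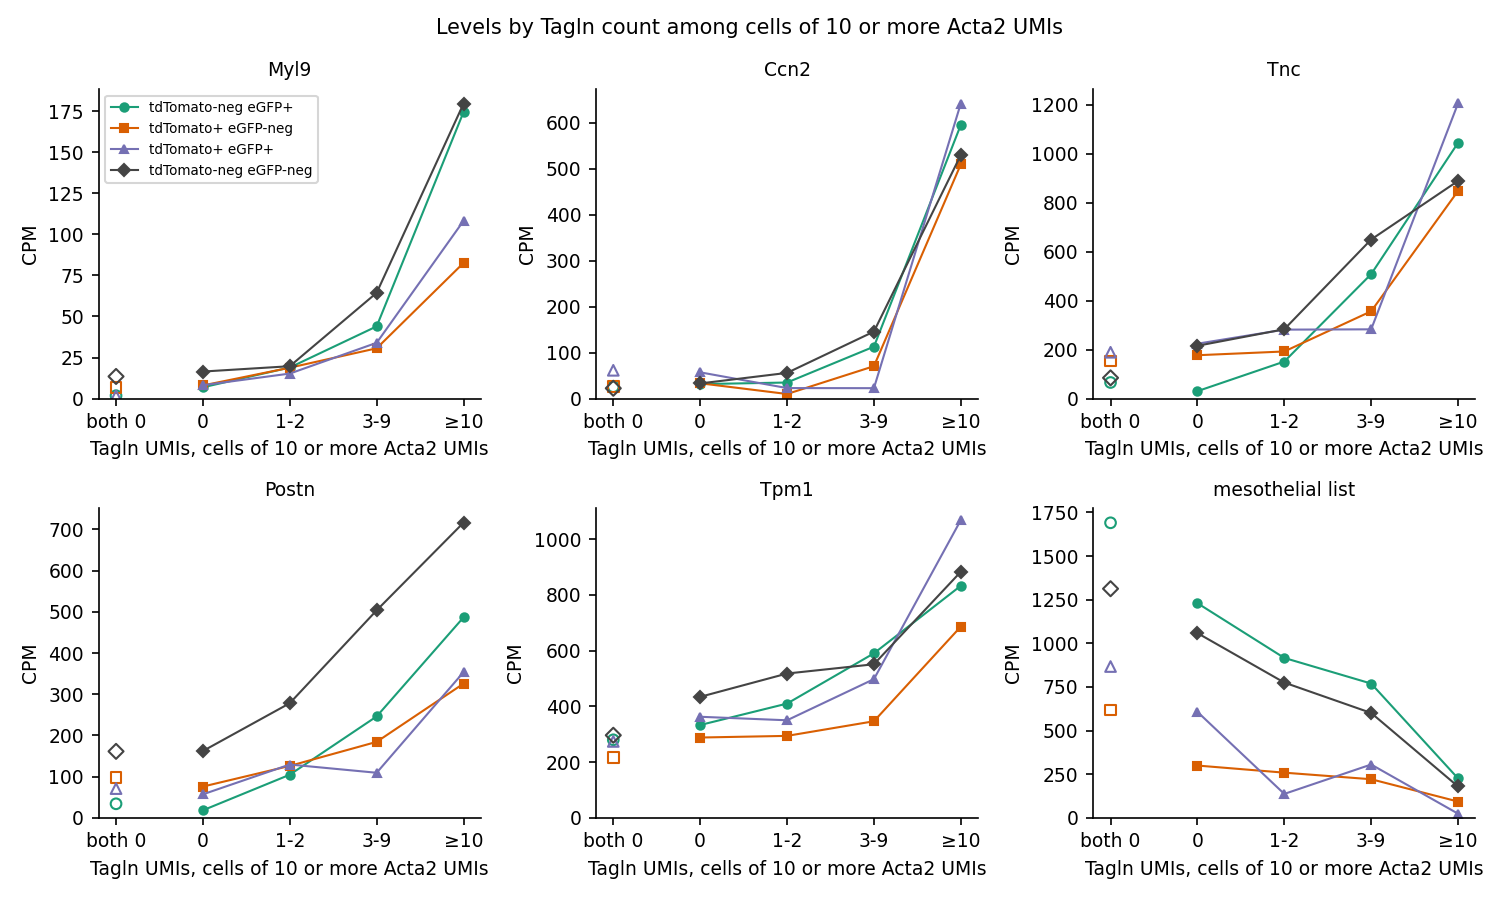
CPM of 5 genes and of the summed mesothelial list in cells with at least 10 Acta2 UMIs, by their Tagln count, with 1 line for each library. Open symbols at the left (both 0) are the Acta2-zero cells. Myl9, Ccn2, Tnc, Postn and Tpm1 are highest at 10 or more Tagln UMIs in every library, and the mesothelial list is lowest there.

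Over the whole range of Acta2 counts the levels changed in steps. In bins of 0, 1 to 2, 3 to 9, 10 to 29 and at least 30 Acta2 UMIs, the summed contractile list without Acta2 and Tagln increased at each step in every library. It went from 11679 to 21596 CPM, 10181 to 19660 CPM, 11097 to 22184 CPM and 11104 to 22338 CPM. Myl9 behaved otherwise, since it stayed between 1.4 and 20.3 CPM up to 9 UMIs and reached 196, 110.3, 168.1 and 212 CPM at 30 or more. Egln3 at 30 or more was the lowest of the 5 bins in every library (39.7, 51.6, 35.6 and 21.2 CPM). Cxcl13 was also lowest there, at 49.3, 845, 229 and 51.3 CPM.

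**Figure D4:**
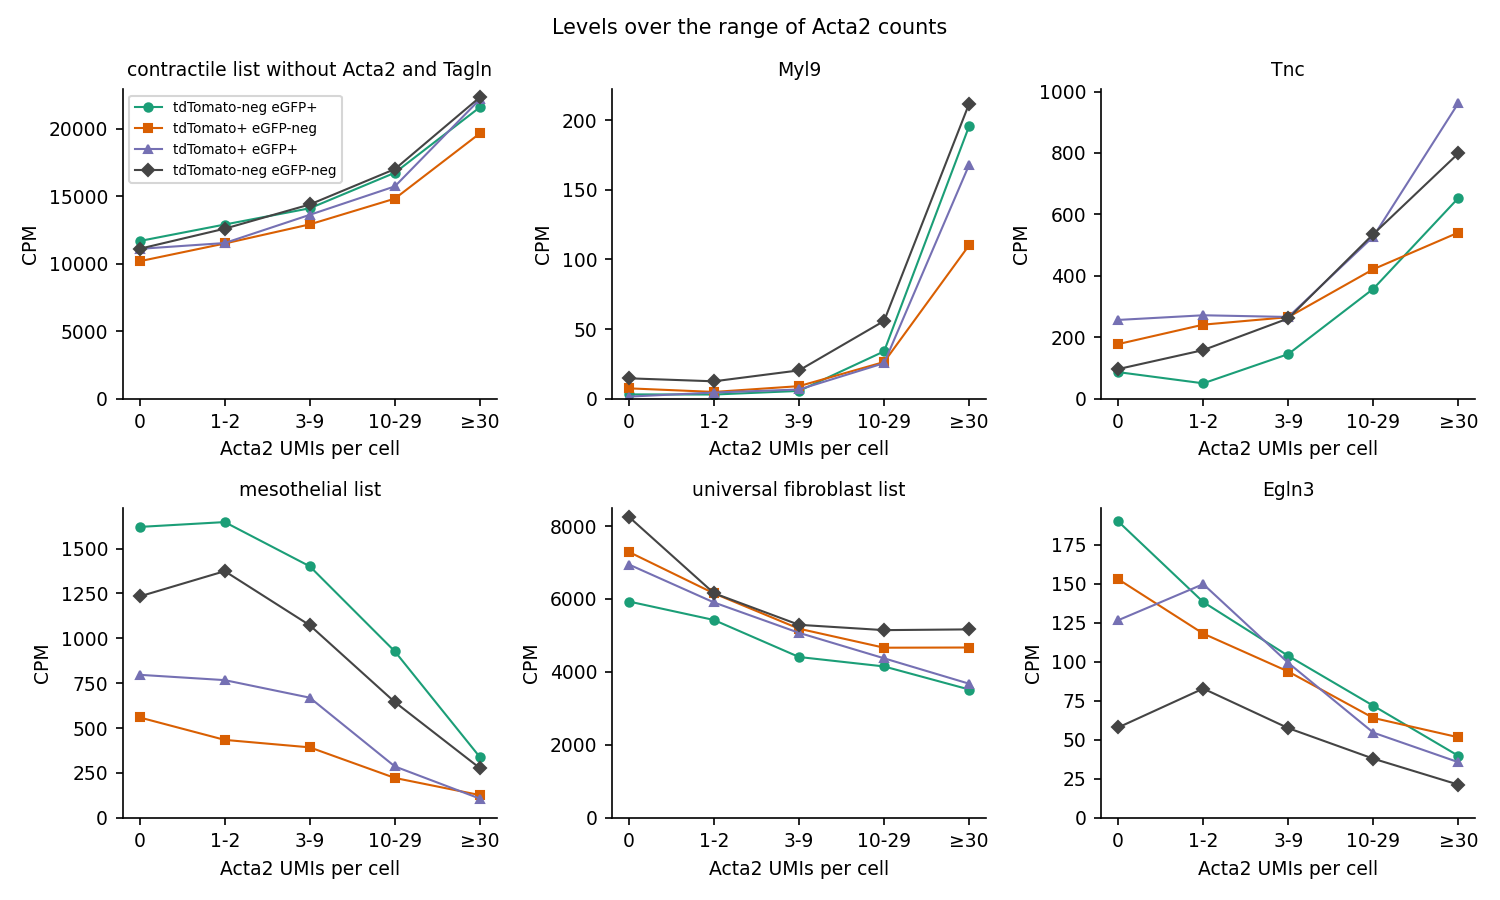
CPM of the summed contractile, mesothelial and universal fibroblast lists and of Myl9, Tnc and Egln3 by the number of Acta2 UMIs in the cell, with 1 line for each library. The contractile list climbs over all 5 bins, Myl9 climbs mostly above 10 UMIs, and the mesothelial list and Egln3 are lowest at 30 or more.

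To read the comparison among cells of like make-up, it was repeated in cells with at most 1 UMI over the mesothelial genes and no Pi16 UMI. This left 656 Acta2-high and 531 Acta2-zero cells in 3 libraries, the tdTomato+ eGFP+ library having under 50 a side. Of 7934 genes, 57 were higher (0.718%) and 137 lower (1.73%). Of the 47 genes higher in all cells, 28 were past the threshold again and 47 of 47 had the same sign in every library. Of the 96 lower genes, 68 had enough UMIs, 41 were past the threshold again and 66 had the same sign. The restricted cells are a subset of the cells in which these genes were chosen. Agreement here and below is therefore in part built in and is not independent support. With Pi16 cells left in, 0.853% and 2.12% of 8211 genes were past the threshold, and among mesothelial-rich cells, of which the tdTomato-neg eGFP-neg library had 80 Acta2-high and 391 Acta2-zero, 3.17% and 12.5% of 9796 in that 1 library. The median fold of the higher genes was 1.77 here against 2.03 in all cells, and that of the lower genes -1.52 against -1.65. Ccn2 had log2 folds of 6.78, 4.48 and 4.85, Col8a1 of 6.07, 4.40 and 3.71, and Myl9 of 5.81, 3.58 and 2.64. Since this comparison also rests on 3 libraries in place of 4, it was set beside all cells of the same 3 libraries, where 81 genes were higher and 313 lower. Of these, 72 and 120 had enough UMIs in the restricted cells, 39 and 72 were past the threshold again, and 72 and 116 had the same sign in every library. In the contractile list, 7 of 24 genes were higher in the restricted cells and 6 of 25 in all cells of the same libraries. Tpm2 and the phosphatase inhibitor Ppp1r14a were past the threshold in both, the actins Actb and Actg1 in the restricted cells only, and Cnn1 in all cells only. Mfap5 was higher in the restricted cells (2.67, 1.28 and 1.40) and not in all cells of the same libraries, as was the stretch-gated channel Piezo2 (2.26, 1.70 and 2.02). Further genes past the threshold in the restricted cells but not in all cells of the 4 libraries, chosen after their values were seen, were the LIM cofactor Fhl2 (3.62, 3.31 and 2.70), Thy1 (2.34, 1.42 and 1.36) and Notch3 (1.45, 2.31 and 2.31), each of which was also past it in all cells of the same 3 libraries. Piezo2 was likewise chosen after its values were seen.

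In the hypoxia list, 7 of 10 genes were lower in these cells, with a median log2 fold of -1.66, against 6 of 10 and -1.28 in all cells of the same 3 libraries. The gene added was the glucose transporter Slc2a1. Egln3 was at -2.93, -1.84 and -2.06. C3 remained lower (-1.73, -1.52 and -2.03). The universal list, whose marker Pi16 had been used to remove cells, had 1 gene higher and 1 lower of 12, against 0 higher and 6 lower of 14 in all cells of the same libraries. Melanoma genes (3 of 4 read) and immune genes (3 of 3 read) were also lower in this comparison, against 3 of 4 and 0 of 4 in all cells of the same libraries. When cells with under 50 collagen UMIs, at least 3 melanoma UMIs or at least 3 immune UMIs were removed as well, 629 Acta2-high and 447 Acta2-zero cells were left. Of 7660 genes, 67 were then higher (0.875%) and 123 lower (1.61%), and 24 of the 47 and 41 of the 96 were past the threshold again.

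**Figure D5:**
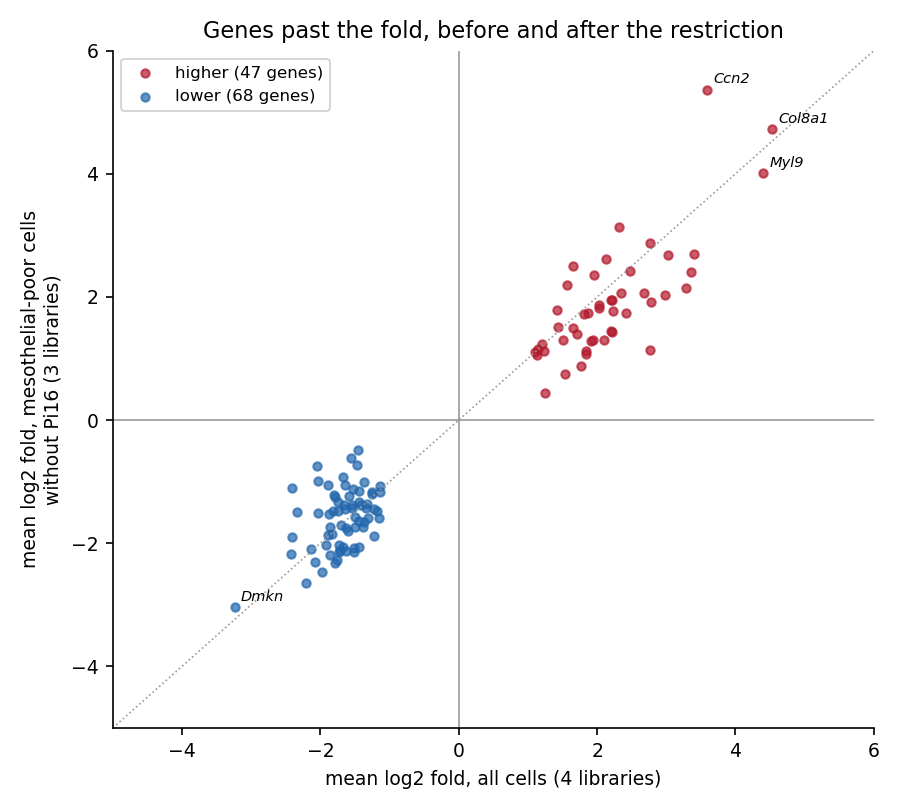
Mean log2 fold in all cells (4 libraries, horizontal) and in mesothelial-poor cells without Pi16 (3 libraries, vertical) of the 47 higher and the 68 lower genes with enough UMIs in both, 1 point for each gene, with a dotted line where both are equal. All 47 higher genes are above 0 on both axes, with Ccn2 farthest above the line, and all 68 lower genes are below 0 on both. The cells of the vertical axis are a subset of those of the horizontal axis.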

How the data were processed

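Single-cell RNA-seq of 4 sorted CAF populations, 1 library each, was analysed. The authors deposited unnormalized UMI counts of 33696 genes per barcode, made with the 10x Genomics 3' chemistry. The submitters' processing notes name Cell Ranger 10.0.0, STAR (version not given), Seurat 5.0 and GRCm39, whereas the headers of the deposited count matrices name Cell Ranger 8.0.0, and this conflict could not be settled. Depth per library was 63310850, 52046896, 10071954 and 90259852 UMIs, and precision was lowest in the third, with 61 Acta2-high and 73 Acta2-zero cells.

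Counts were summed per group and library in Python 3.11.15 with numpy 2.4.6, scipy 1.17.1 and pandas 2.3.3, and drawn with matplotlib 3.10.9. Log2 folds of CPM had 0.5 UMI added and exact conditional Poisson intervals. Shares had exact Clopper-Pearson intervals, both at 95%. Fold bounds against 0 UMIs used 3 counts. Cells are not replicates, each population was 1 library and the groups were chosen on 2 of the genes, so no test was run. Summing, threshold and intervals were checked on simulated counts with known changes.

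The members, the 28 gene lists and the rule for named genes were chosen with earlier results of these data known. From each list the 6 largest and 3 smallest mean folds could be named, as could the defining markers of other cell types and the 15 largest called genes in each direction. Other named genes were chosen after their values were seen. Alternatives changed the fold, the filter on UMIs, the normalization, thinning, depth and mitochondrial limits, the Acta2 and Tagln limits, the make-up of the cells (cycling, mesothelial, sex-linked) and the libraries. The restrictions to mesothelial-poor cells without Pi16 and to collagen-rich cells were added after seeing the data. Bulk RNA-seq, flow cytometry and clusters were not used here.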

Additional observations from a re-analysis of the deposited data

Results flagged for a closer look

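For 10 listed genes the Acta2-high cells were higher in 1 library and lower in another by at least 0.5 on the log2 scale, and none of these differences between libraries was tested. Ccl11, an eosinophil attractant, had a log2 fold of 2.89 in the tdTomato-neg eGFP+ library and -0.74 in the tdTomato+ eGFP-neg library. The same pair of libraries was apart for the matrix genes Col14a1 (1.34 and -0.99), Dpt (1.69 and -0.68), Lum (1.67 and -1.40), Lama2 (1.80 and -1.22) and Lamb1 (0.96 and -0.70), and for Ltbp1, which holds latent TGF-beta (0.66 and -1.98). Ccl19, a T cell zone chemokine, had 1.79 in the tdTomato-neg eGFP+ and -0.62 in the tdTomato-neg eGFP-neg library. Col12a1 had 1.01 in the tdTomato-neg eGFP-neg and -0.57 in the tdTomato+ eGFP+ library, and Col4a6 had 1.47 in the tdTomato+ eGFP+ and -1.83 in the tdTomato-neg eGFP-neg library. Beside these values, mesothelial-rich cells made up 61.9% of the Acta2-zero cells of the tdTomato-neg eGFP+ library and 28.1% of those of the tdTomato+ eGFP-neg library. A Pi16 UMI was seen in 3.56% of Acta2-zero and 4.23% of Acta2-high cells of the first library and in 15.1% and 2.76% of those of the second. In mesothelial-poor cells without Pi16, the log2 folds in these 2 libraries were 2.38 and 0.15 for Ccl11, 1.34 and 0.03 for Col14a1 and 0.99 and -0.04 for Dpt, so the lower side was near 0 there. They were 1.48 and -0.59 for Lum, 1.64 and -0.54 for Lama2, 0.54 and -0.39 for Lamb1 and 0.33 and -1.18 for Ltbp1, still of opposite sign.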

How the results depend on the processing

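No paired analysis was possible because no result comes from a test. Each log2 fold is already a difference between the 2 groups of cells within 1 library. Of 483 list values and 1014 gene values under the alternatives, 388 and 872 stayed within the spread of the libraries, 95 and 140 moved and 2 changed sign. Both were in mesothelial-rich cells, read in 1 library, where Ankrd1 was -0.044 and Pi16 0.88. The main setting gave 47 higher and 96 lower of 6222 genes read, and 50 named genes past the threshold. It also gave 7 lists with a median log2 fold of at least 0.5 in size, and lists are counted by that limit here. Settings differ in the number of genes read, so counts are given with it. A fold limit of 0.5 gave 278 higher and 433 lower of 6222. At least 100 UMIs gave 12 and 28 of 1870 (11 lists, and 15 of the 15 named genes read). At least 1 UMI gave 109 and 321 of 13917. Thinned cells gave 27 higher of 4270 (28 of 33 named genes). A depth of 8000 to 12000 UMIs gave 209 lower of 8481, over 3 libraries. Limits of 20 Acta2 and 5 Tagln UMIs gave 94 and 411 of 10293, over 3 libraries. Acta2 alone gave 15 and 59 of 7168 over 4 libraries (29 named genes). Without cycling cells 208 of 9384 were lower, over 3 libraries. Mesothelial-poor cells gave 174 lower of 8211 over 3 libraries (30 of 39 named genes). Mesothelial-rich cells gave 311 and 1223 of 9796 in 1 library (25 of 44). Cells with Xist and no Y-linked UMI gave 22 and 148 of 6773 over 3 libraries (25 of 38). Cells with Y-linked UMIs and no Xist gave 107 and 281 of 7829 over 3 libraries. Mesothelial-poor cells without Pi16 kept 25 of 35 named genes, and the same among collagen-rich cells 22 of 31, with 4 lists. Leaving out 1 library gave 49 to 81 higher, 104 to 313 lower and 5 to 8 lists. The cause was not tested. Without the tdTomato+ eGFP-neg library 77 were higher and 170 lower, and without the tdTomato+ eGFP+ library 81 and 313 of 10674 genes read in place of 6222. Higher genes made up 32.9% of those past the threshold, but 22.01% at 8000 to 12000 UMIs, 18.6% at 20 Acta2 UMIs, 20.3% by Acta2 alone and in mesothelial-rich cells, 12.9% in cells with Xist and no Y-linked UMI and 20.6% without the tdTomato+ eGFP+ library. Apart from Acta2 alone, these settings were read in 3 libraries, or in 1 for mesothelial-rich cells. A fold in every library is a looser rule there, and its part in the counts and shares was not tested.

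The share of cells in a group followed depth. Thinned cells gave 3.80%, 4.11%, 7.80% and 6.85% Acta2-high and 28.2%, 28.0%, 24.8% and 29.9% Acta2-zero cells. At 8000 to 12000 UMIs, 16.2% of the tdTomato-neg eGFP+ library were Acta2-zero, and in the tdTomato-neg eGFP-neg library 13.7% were Acta2-high and 20.2% Acta2-zero. Among cells with Xist and no Y-linked UMI, the tdTomato-neg eGFP+ library had 7.84% Acta2-high and 13.0% Acta2-zero. In these cells the tdTomato+ eGFP-neg library had 15.0% Acta2-zero, and the tdTomato-neg eGFP-neg library 10.0% and 27.9%. Among cells with Y-linked UMIs and no Xist, Acta2-zero shares were 21.9%, 22.8% and 17.9% in these libraries, and the last had 14.2% Acta2-high. Depth limits the tdTomato+ eGFP+ library most, and genes at 1 to 3 UMIs there have intervals too wide to order.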

Other observations

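The groups differed in marks of sex, which were not part of any comparison. Cells with Xist UMIs and none of the Y-linked genes made up 28.0%, 44.8%, 34.4% and 21.3% of Acta2-high and 16.5%, 35.4%, 46.6% and 33.3% of Acta2-zero cells in the 4 libraries. The order of the groups was thus not the same in every library, and the labels do not tie cells to animals. Some genes past the threshold in mesothelial-poor cells without Pi16 were in no list and were chosen after their values were seen. Nos2, which makes nitric oxide, had log2 folds of -3.28, -2.11 and -1.77. F2r, the thrombin receptor, had 3.29, 2.26 and 2.29, and Lrrc32, which holds latent TGF-beta at the cell surface, had 2.57, 1.81 and 1.10. Fap, often used to mark CAF, had a UMI in 10.2% of thinned Acta2-high and 9.31% of Acta2-zero cells, against 2.21% of cells with a Ptprc UMI.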
